A study of Mus musculus with 6 samples.

Results

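The Akr1c genes are the mouse branch of the aldo-keto reductases that act on steroids, and the 9 array probes named for them were read in whole testis of mice with and without the histone gene H3f3b. The genes chosen were Akr1c6, Akr1c12, Akr1c13, Akr1c14, Akr1c18, Akr1c19, Akr1c20 and Akr1c21, matched by symbol in the deposited signal table, whose 45281 probes carry 31494 gene symbols. The family was chosen by the measured signal of Akr1c19, which was higher in knockout than in wild-type testis. That difference is therefore given as a description with no test, and the other family genes belong by name and not by their values. Of the 8 genes, 7 were among those symbols, and no probe carried the symbol Akr1c13.

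The mice were C57BL6J males of 8 weeks, and each array was hybridised with labelled cRNA from 1 testis of 1 mouse. There were 2 wild-type mice (WT, H3f3b WT/WT), 2 heterozygotes (HET, H3f3b WT/-) and 2 knockouts (KO, H3f3b -/-), and each of 2 litters supplied a mouse of every genotype. H3f3b encodes the replacement histone H3.3, and the null allele came from a floxed allele recombined by Zp3Cre, which is active in oocytes, so the deletion was constitutive and was not limited to a cell type of the testis. The age field of the labels names an embryonic stage, whereas the source names and the design give 8 weeks, and the spermatid transcript Tnp1 had a signal between 17552.6 and 22407.2 on the 6 arrays.

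Aldo-keto reductases of this branch are soluble, NADPH- or NADH-dependent enzymes that interconvert ketosteroids and hydroxysteroids and also reduce carbonyl compounds such as aldehydes. By doing so they activate or inactivate androgens, progestins and prostaglandins in the tissue where they are expressed. In the testis, Leydig cells make androgens, and Sertoli and peritubular cells respond to them. Akr1c18 is known as the enzyme that inactivates progesterone in the mouse ovary, Akr1c6 as a liver hydroxysteroid dehydrogenase acting on sex steroids, Akr1c14 as an enzyme that reduces dihydrotestosterone, and Akr1c21 as a kidney enzyme that makes epitestosterone.

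In the RefSeq gene table of GRCm38.p6 the 8 genes form 1 cluster on chromosome 13, in the order Akr1c14, Akr1c18, Akr1c13, Akr1c19, Akr1c12, Akr1c6, Akr1c20 and Akr1c21. Akr1c19 thus lies between Akr1c13 and Akr1c12, and no other protein-coding gene of the table lies within the cluster. The upstream sequences of these 3 adjacent genes are shown because 2 of them, Akr1c19 and Akr1c12, were the family genes detected in testis, and Akr1c13 is their unmeasured neighbour. Each runs 5′ to 3′ in the sense of the gene, from 250 bases before the RefSeq start to 50 after it, and capitals mark the element CATTAG, which was picked after reading the sequences.
Akr1c19 (chr13:4233490-4233789, plus strand): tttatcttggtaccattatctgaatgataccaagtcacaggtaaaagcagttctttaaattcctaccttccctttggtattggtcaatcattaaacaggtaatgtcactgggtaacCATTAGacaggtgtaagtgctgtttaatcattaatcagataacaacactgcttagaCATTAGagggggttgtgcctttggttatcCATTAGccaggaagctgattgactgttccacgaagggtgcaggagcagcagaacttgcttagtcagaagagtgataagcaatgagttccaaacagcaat
Akr1c12 (chr13:4279350-4279649, minus strand): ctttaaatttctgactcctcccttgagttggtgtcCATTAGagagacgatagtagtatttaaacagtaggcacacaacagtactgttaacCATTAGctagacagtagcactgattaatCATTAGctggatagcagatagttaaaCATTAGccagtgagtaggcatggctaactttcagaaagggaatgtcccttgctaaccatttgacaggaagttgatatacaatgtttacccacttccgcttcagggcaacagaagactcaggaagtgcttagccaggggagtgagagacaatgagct
Akr1c13 (chr13:4190937-4191236, plus strand): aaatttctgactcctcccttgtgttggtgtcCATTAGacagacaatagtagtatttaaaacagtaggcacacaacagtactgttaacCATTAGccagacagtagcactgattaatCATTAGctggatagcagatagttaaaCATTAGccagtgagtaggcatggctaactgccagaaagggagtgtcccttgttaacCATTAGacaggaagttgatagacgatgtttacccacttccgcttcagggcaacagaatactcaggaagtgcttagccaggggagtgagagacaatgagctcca

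The element occurred 3 times upstream of Akr1c19, 4 times upstream of Akr1c12 and 5 times upstream of Akr1c13, always on the strand of the gene. It occurred once each in the windows of Akr1c6 and Akr1c21 (1 copy) and not in those of Akr1c14 and Akr1c18 (0 copies), and Akr1c20 had no entry. Of all 32851 RefSeq windows of this length, 7.36% held at least 1 copy on either strand and 0.0274% (9 windows) at least 3. These 9 include the windows of Akr1c19, Akr1c12 and Akr1c13. Since the element was picked from those windows, nothing is read from its rarity elsewhere. The windows of Akr1c12 and Akr1c13 were identical at 284 of 304 aligned positions (93.4%). Akr1c19 matched Akr1c13 at 59.8% and Akr1c12 at 58.4% of aligned positions, which were the highest values among the other 20 family pairs (lowest 48.9%, median 51.2%). Against the windows of 10 genes flanking the cluster, the Akr1c19 window was identical at 48.6% to 52.2% of positions.

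Searched on both strands, the TATA box TATAAA was found upstream of Akr1c6 alone among the 7 family windows (13.6% of all windows), and the CCAAT box upstream of Akr1c6, Akr1c14 and Akr1c19 (37.4% of all windows). The antioxidant response element core TGACNNNGC matched Akr1c19 alone (12.4% of all windows), on the minus strand 7 bases after the start. The Nr5a1 binding sequence AAGGTCA had 0 matches in the 7 windows (4.7% of all windows). The family windows held 36.0% to 43.7% G and C bases, against a median of 52.7% over all windows. The shares of all windows, also those for CATTAG, thus come from windows of another base composition. These are matches of letters and were not tested as binding sites.

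Most of the family's probes were at background in adult testis. A probe was kept for testing where its detection p-value, which compares the probe with the array's negative controls, was under 0.05 in both mice of some genotype, and 2 of the 9 family probes met this. They were the Akr1c19 probe and 1 of the 2 Akr1c12 probes, both detected on all 6 arrays. The other 7 probes had deposited signals between 84.6 and 105.8 on the linear scale, where the lowest signal of a detected probe was between 98.3 and 105.3 depending on the array. Of their 42 detection p-values, 1 was under 0.05: an Akr1c14 probe in the WT mouse of litter 2, with a signal of 105.8 and a detection p-value of 0.0438. That Akr1c14 probe was at 87.9 in the other WT mouse, at 97.2 and 84.8 in HET and at 93.4 and 90.1 in KO, so no genotype was detected as a group.

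The ovarian progesterone-inactivating gene Akr1c18 had signals of 94.1 and 88.7 for WT, 95.2 and 95.6 for HET and 95.1 and 97.0 for KO, and Akr1c6 was at 87.8 and 91.9 (WT), 96.7 and 86.8 (HET) and 90.1 and 94.5 (KO). Akr1c20 and Akr1c21, the latter the kidney enzyme, were likewise not well above background on any array. No fold is given for these genes, since no genotype had a measured level. An undetected probe does not show that the transcript was absent. For Akr1c12, 1 probe was detected on no array and the other on all 6. The probe sequences are not in the files, so whether a probe also reads a close paralogue, such as Akr1c13 for an Akr1c12 probe, was not tested.

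**Figure D1:**
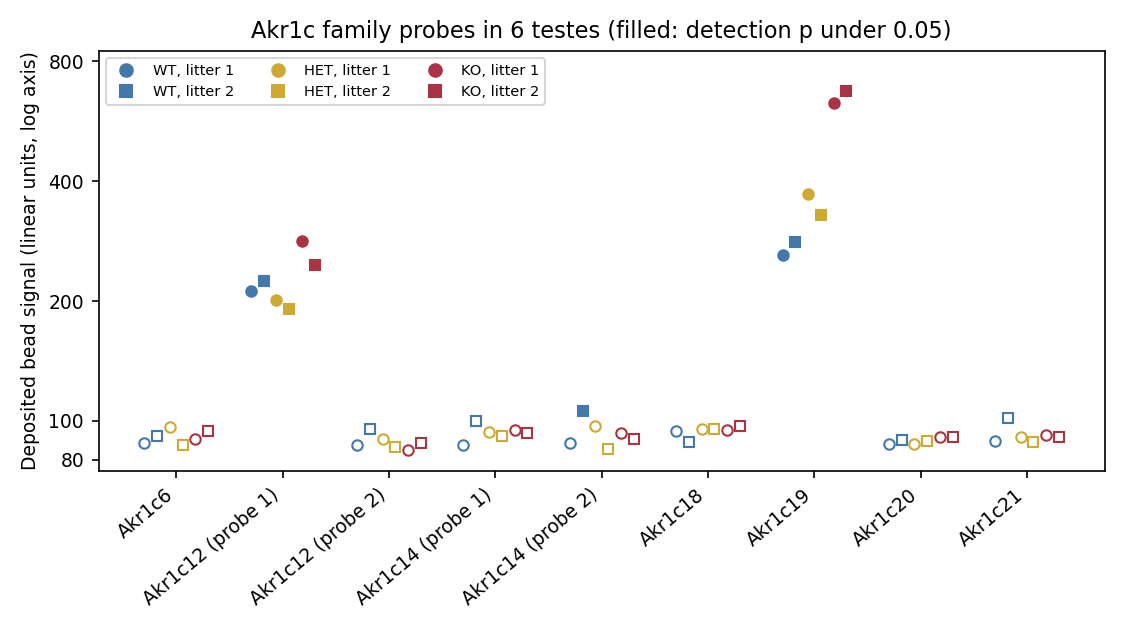
Deposited bead signal (linear units on a log axis) of the 9 Akr1c probes in the 6 testes, coloured by genotype and shaped by litter, with filled symbols where the detection p-value was under 0.05. Akr1c19 and 1 Akr1c12 probe are filled on all 6 arrays, while the other 7 probes lie between 84.6 and 105.8 with 1 filled symbol.

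Akr1c19 was lowest in WT, intermediate in HET and highest in KO, and the 3 genotypes did not overlap. In litters 1 and 2, the deposited signal was 260.9 and 281.3 for WT, 370.8 and 328.0 for HET, and 630.0 and 673.9 for KO. After background correction and quantile normalization between arrays, the log2 normalized signal was 7.56 and 7.72 for WT, 8.13 and 8.18 for HET, and 9.01 and 9.15 for KO, in the same order of litters. Both HET mice thus lay above both WT mice, and both KO mice above all 4 others. Of all 20573 kept probes, 5.93% showed this full order.

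The mean log2 level of Akr1c19 was 7.64 ± 0.12 in WT, 8.16 ± 0.04 in HET and 9.08 ± 0.10 in KO (SD, n = 2 each). The KO mean was 1.44 above the WT mean on the log2 scale (SE 0.14), or 2.71-fold, and the difference was 1.45 within litter 1 and 1.43 within litter 2. This is the value for which the family was chosen, and 9 of the 20573 kept probes (0.0437%) had a difference in this direction as large or larger. Over the other processing settings it ranged from 1.16 without background correction to 1.57 without normalization between arrays, and from 1.35 to 1.52 when each mouse was left out in turn.

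The HET mean of Akr1c19 was 0.52 above the WT mean on the log2 scale (SE 0.14), or 1.43-fold, with 0.57 in litter 1 and 0.46 in litter 2. The KO mean was 0.92 above the HET mean (SE 0.14), with 0.88 and 0.97 in the 2 litters. Both differences are also given with no test, because the WT and KO mice are those of the contrast that chose the family.

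Akr1c12, the neighbour of Akr1c19 in the cluster, showed a smaller spread and another order of the genotypes. The deposited signal was 211.5 and 224.3 for WT, 201.1 and 191.5 for HET, and 282.3 and 245.8 for KO. On the log2 normalized scale these mice were at 7.13 and 7.26 (WT), 6.87 and 7.07 (HET), and 7.55 and 7.30 (KO). HET had the lowest mean and KO the highest, but the KO mouse of litter 2 was only 0.04 above the WT mouse of its litter.

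The mean log2 level of Akr1c12 was 7.19 ± 0.09 in WT, 6.97 ± 0.14 in HET and 7.43 ± 0.18 in KO (SD, n = 2 each). KO differed from WT by 0.23 (SE 0.15), with 0.42 in litter 1 and 0.04 in litter 2, and 25.4% of kept probes had a difference in this direction at least as large. HET differed from WT by -0.22 (SE 0.15, 95% interval -0.56 to 0.12), which did not pass the test (limma adjusted p = 0.710). KO exceeded HET by 0.45 (SE 0.15, 95% interval 0.12 to 0.79), or 1.37-fold, with 0.68 in litter 1 and 0.23 in litter 2. That difference did not pass correction (limma adjusted p = 0.163, unadjusted p = 0.0139). It passed with the authors' own scaled values (0.37, limma adjusted p = 0.0286). That setting called more probes in general, with 4292 in KO against WT where the main fit called 1421. The other Akr1c12 probe was detected on no array, so the gene's level rests on the brighter probe.

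**Figure D2:**
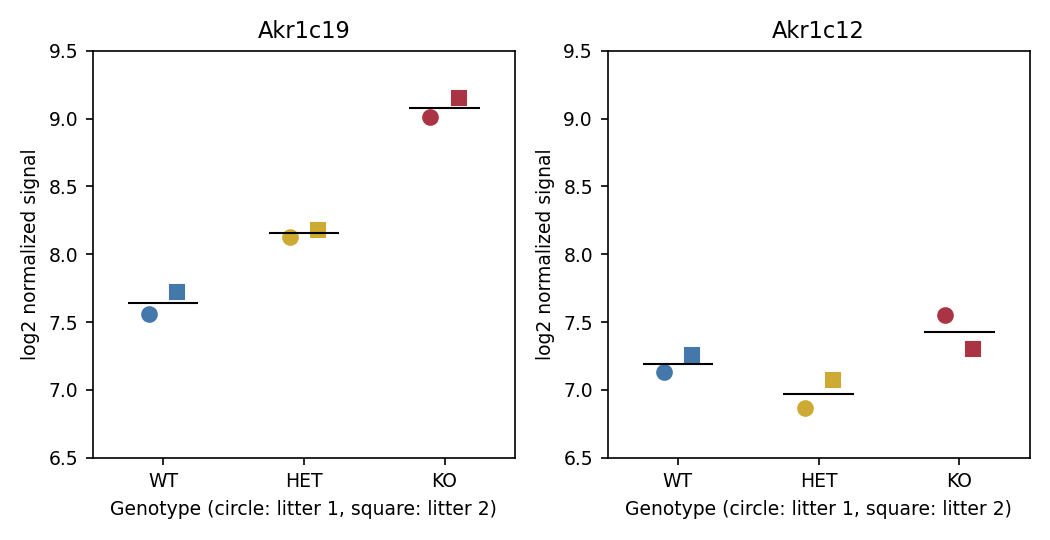
Log2 normalized signal of Akr1c19 (left) and Akr1c12 (right) in each mouse, by genotype, with circles for litter 1, squares for litter 2 and a line at the mean of 2 mice. Akr1c19 goes from 7.56 and 7.72 in WT to 9.01 and 9.15 in KO with HET between, while Akr1c12 is lowest in HET and lies between 6.87 and 7.55 throughout.

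Counted over the family, limma's fit called 1 of the 2 kept probes in KO against WT, where 6.91% of all kept probes were called. Since this contrast chose the family, nothing is read from that count. In HET against WT it called 0 of 2, beside 0% of all kept probes called (0 of 20573, with 8.84% at an unadjusted p under 0.05). In KO against HET it also called 0 of 2, beside 0.112% called (23 of 20573). With litter as a replicate block, the Akr1c19 probe was called in KO against HET. Nothing is read from the part of Akr1c19 in these counts, since its WT and KO mice chose the family, which leaves Akr1c12. Its unadjusted p in KO against HET was under 0.05, as was that of 19.2% of all kept probes.

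H3f3b itself served as the check of the labels. Its log2 normalized signal was 11.78 and 11.73 for WT, 11.10 and 10.96 for HET, and 4.43 and 4.28 for KO, in which it was not well above background. The summed signal per array lay between 15427284 and 17674449, and 19809 to 21323 probes were detected per array. With 2 mice per genotype, the number of arrays limits the precision of every value. The labels give separate mice, so the spread covers differences between animals.

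Among markers of testis cell types, 5 of the 8 detected Sertoli markers (Cldn11, Clu, Dhh, Inha and Wt1) and 1 of the 6 detected Leydig markers (Cyp17a1) rose in KO against WT (limma), where 2.64% of all genes, read at each gene's brightest kept probe, were higher and 4.98% lower. In the peritubular, spermatogonial, spermatocyte and spermatid lists 0 passed, and 0 fell in any of these 6 lists. In bulk tissue, a change in the share of a cell type and a change in RNA per cell cannot be told apart. The summed linear normalized level of the 8 detected of 10 Sertoli markers was 15572 to 15664 in WT, 17445 to 18148 in HET and 23505 to 24186 in KO, with Amh and Gata4 not detected. The sum of the 6 detected of 9 Leydig markers was 10112 to 10989 in WT, 8482.3 to 11595 in HET and 15424 to 16335 in KO, with Hsd3b1, Hsd3b6 and Nr5a1 not detected. Peritubular markers (2 of 4 detected, Cnn1 and Tagln not) summed to 2926.3 to 2949.5 in WT, 2973 to 3089.3 in HET and 3979.5 to 3981.6 in KO. Spermatid markers (5 of the 5 on the array) were at 76898 to 77681 in WT, 74565 to 75263 in HET and 69109 to 74509 in KO. Spermatogonial markers (3 of 6 detected; Dmrt1, Gfra1 and Stra8 not) summed to 485.71 to 515.81, 571.47 to 635.88 and 654.54 to 717.7 in WT, HET and KO. Spermatocyte markers (4 of 5 detected, Sycp3 not) summed to 28781 to 29853, 27801 to 29069 and 30050 to 34658 in that order. The Sertoli, peritubular and spermatogonial sums ran in the genotype order of Akr1c19 without overlap, an order that 5.93% of single kept probes showed. How often sums of other genes run in it was not computed. The peritubular and spermatogonial sums rest on 2 and 3 genes, of which 0 passed. The part of these marker shifts in the Akr1c19 values was not tested.

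Markers were also read of tissues in which Akr1c genes are known or which could adhere to a testis. Those of liver, epididymis and adrenal cortex were mostly at background, while most of those of adipose tissue, red blood cells and macrophages were detected. All 5 liver markers, among them Alb and Ttr, were undetected, as were 6 of 7 epididymis markers, including Lcn5, Lcn8 and Crisp1, and 3 of 4 adrenal cortex markers, Akr1b7, Cyp11b1 and Cyp21a1. Adipose markers (4 of 5 detected, Plin1 not) summed to 685.97 to 799.98 in WT, 641.73 to 770.99 in HET and 386.12 to 529.45 in KO, the direction opposite to that of Akr1c19, and 2 of the 4, Adipoq and Retn, fell in KO against WT (limma). Red blood cell markers (3 of 3) summed to 1253.3 to 1583.8, 1726.6 to 1834 and 891.48 to 1258.8 in the same order. Macrophage markers (3 of 4 detected, Cd163 not) summed to 92.444 to 99.974 in WT, 98.409 to 108.48 in HET and 108.73 to 115.23 in KO, and 0 of the 3 passed in KO against WT.

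Other members of the aldo-keto reductase superfamily were measured in the same testes, and 2 of 9 rose in KO against WT while 0 fell. The background for this count was 2.64% of all genes higher and 4.98% lower. The list median was 0.35, against 0.05 over all 14524 genes. Akr1cl (deposited as 4921521F21Rik), named as Akr1c-like but lying outside the cluster, was at 10.68 and 11.01 for WT, 10.78 and 11.08 for HET, and 11.51 and 11.64 for KO on the log2 scale. HET overlapped WT, and the rise from WT to KO was 0.73 (SE 0.17, limma adjusted p = 0.0365). The second Akr1cl probe differed by 0.54 and did not pass (limma adjusted p = 0.105).

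Akr1b8, an enzyme that reduces aldehydes, was at 8.55 and 8.62 for WT, 8.59 and 8.32 for HET and 9.15 and 9.21 for KO. The rise from WT to KO was 0.60 (SE 0.14, limma adjusted p = 0.0417). Akr1a1 (deposited as Akr1a4), a broad aldehyde reductase, differed by 0.51 at its brightest probe (limma adjusted p = 0.0606), while another of its probes passed (0.68, limma adjusted p = 0.0372). With litter as a replicate block its brightest probe passed too (limma adjusted p = 0.0489), which took the list from 2 to 3 calls. Over all probes, that block took the calls from 1421 to 1912. Akr7a5, another aldehyde reductase, differed by 0.48 at its brightest probe (limma adjusted p = 0.0566). Its other kept probes differed by 0.19 and 0.24 (limma adjusted p = 0.452 and 0.409). Akr1b10, Akr1b3 and the potassium channel beta subunit gene Kcnab3 differed by 0.35, 0.07 and 0.05, and Kcnab2 and Akr1e1 by -0.25 and -0.27. In HET against WT, 0 of the 9 passed the test, also at an unadjusted p under 0.05, and their differences ran from -0.25 to 0.27. Of all genes, 4.43% were higher and 3.9% lower at an unadjusted p under 0.05 in that comparison. In KO against HET 0 passed, with 5 higher and 0 lower at that threshold, beside 9.65% and 10.4% of all genes. In KO against WT, 4 were higher and 0 lower at that threshold, beside 15.2% and 14.4% of all genes. The calls of Akr1cl and Akr1b8 both ended with cyclic loess, without the filter on dim probes, and without any single WT or KO mouse, each of which left 0 calls in the list. That of Akr1b8 also ended without the HET mouse of litter 2.

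**Figure D3:**
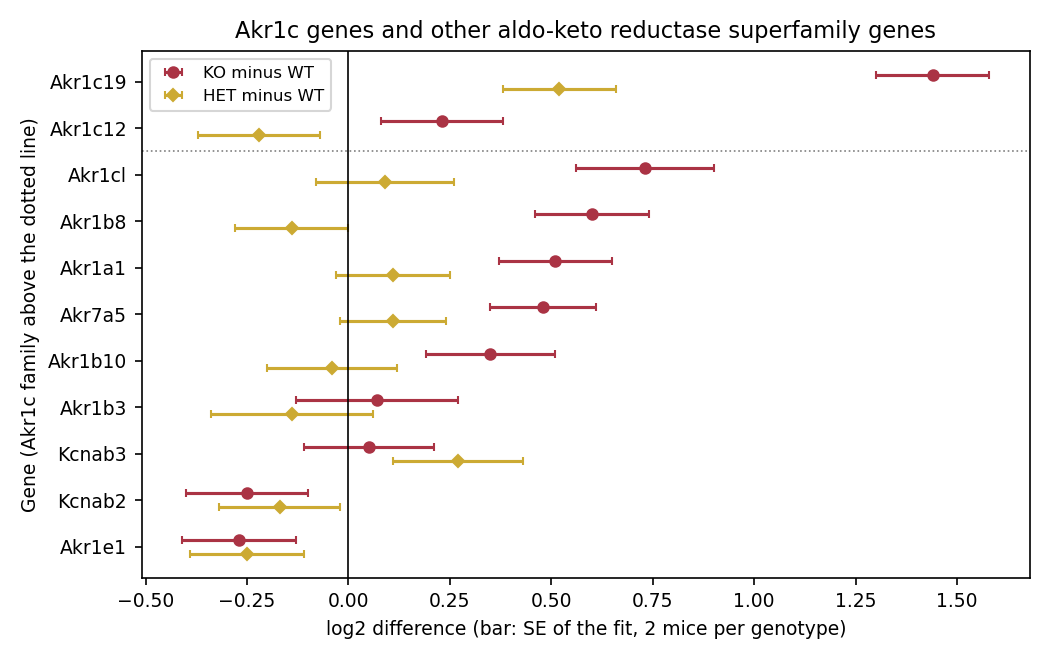
Log2 differences of KO minus WT (circles) and HET minus WT (diamonds) for the 2 kept Akr1c genes, above the dotted line, and 9 other aldo-keto reductase genes, with bars for the SE of the fit over 2 mice per genotype. Akr1c19 lies at 1.44 and 0.52, and the next KO difference is 0.73 for Akr1cl, whose HET difference is 0.09.

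Of the genes that make androgens from cholesterol, 2 of 9 measured rose in KO against WT and 0 fell (median 0.19), beside 2.64% of all genes higher and 4.98% lower. The count fell to 0 with cyclic loess, without the filter on dim probes and without any single WT or KO mouse, and to 1 without either HET mouse. Cyp17a1, the enzyme that splits progestins to androgen precursors, was at 12.24 and 12.35 for WT, 11.90 and 12.51 for HET and 13.07 and 13.05 for KO (0.76, SE 0.19, limma adjusted p = 0.0467). Its HET mice were spread around WT. Cyb5a (deposited as Cyb5), the redox partner of Cyp17a1, rose by 0.54 at its brightest probe (SE 0.14, limma adjusted p = 0.0469). That call was lost under 10 of 16 alternatives, among them median scaling and leaving out any single mouse, and the other kept Cyb5a probe differed by 0.20 (limma adjusted p = 0.424). Hsd17b3, the testis enzyme that completes testosterone, differed by 0.56 (limma adjusted p = 0.0882; 0.0497 with litter as a replicate block). In HET against WT, 0 of the 9 passed, with 1 lower at an unadjusted p under 0.05, beside 3.9% of all genes. In KO against HET 0 passed, with 5 higher at an unadjusted p under 0.05, where 9.65% of all genes were higher and 10.4% lower by that measure.

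Among other enzymes that convert or inactivate steroids, 1 of 13 rose and 1 fell in KO against WT (median 0.33), beside the same 2.64% and 4.98% of all genes. Hsd3b4, a hydroxysteroid dehydrogenase, was at 5.88 and 6.12 for WT, 6.27 and 6.64 for HET, and 8.02 and 8.25 for KO. It showed the full order of genotypes seen for Akr1c19, as did 5.93% of all kept probes. The rise from WT to KO was larger than that of Akr1c19, at 2.14 (SE 0.17, limma adjusted p = 0.00119). The difference from HET to KO, 1.68, also passed (limma adjusted p = 0.0134). The rise from WT passed under all 16 alternatives but was 1.35 without background correction and 1.46 with the authors' scaled values, and the WT signals were 131.8 and 146.1 on the linear scale. The KO against HET call was lost without the filter on dim probes (limma adjusted p = 0.134) and without the HET mouse of litter 1 or either KO mouse (limma adjusted p from 0.0742 to 0.109). Hsd11b1, which regenerates active glucocorticoid, was at 5.32 and 5.43 in WT and 4.69 and 4.66 in KO, and fell by 0.70 at its brightest probe (SE 0.14, limma adjusted p = 0.0268). Its KO signals of 103.0 and 103.5 lay near the lowest detected signal of an array, and the other kept Hsd11b1 probes differed by -0.08 and -0.55 and did not pass (limma adjusted p = 0.759 and 0.164). The call was lost without background correction (-0.21), with normexp at offset 50 (-0.30), with the authors' scaled values (-0.18) and without any single WT or KO mouse. In HET against WT 0 of the 13 passed, with 2 higher at an unadjusted p under 0.05, beside 4.43% of all genes. In KO against HET, Hsd3b4 was the 1 call, where 0.0275% of all genes were called higher.

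Of 19 measured genes in the list of the oxidative stress factor gene Nfe2l2 and its known targets, a factor that controls human AKR1C genes, 1 rose and 1 fell in KO against WT, and 15 had a positive difference (median 0.31). Each call is 1 of 19, beside 2.64% of all genes higher and 4.98% lower, and 8138 of 14524 genes had a positive difference. At an unadjusted p under 0.05, 8 were higher and 2 lower, beside 15.2% and 14.4% of all genes. Pgd, an NADPH-producing enzyme of the pentose phosphate pathway, went from 8.67 and 8.41 in WT through 8.85 and 8.93 in HET to 9.45 and 9.33 in KO (0.85, SE 0.14, limma adjusted p = 0.0183). Srxn1 (deposited as Npn3), which repairs oxidised peroxiredoxins, was at 9.10 and 9.19 for WT, 8.64 and 8.58 for HET and 8.16 and 8.31 for KO, and fell by 0.91 (SE 0.13, limma adjusted p = 0.0150). Its genotype means ran in the order opposite to that of Akr1c19. A second Srxn1 probe fell by 0.76 (limma adjusted p = 0.0201), and the dimmest differed by 0.04. The glutathione transferase genes Gsta3 and Gstm1 differed by 0.81 and 0.62 (limma adjusted p = 0.0879 and 0.107). Both passed once litter was fitted as a replicate block (limma adjusted p = 0.0286 and 0.0354), which took the list from 2 to 4 calls. Over all probes, that block took the calls from 1421 to 1912. The other kept Gsta3 probe differed by 0.32 without the block (limma adjusted p = 0.272). In HET against WT 0 of 19 passed, with 1 higher and 2 lower at an unadjusted p under 0.05, beside 4.43% and 3.9% of all genes. In KO against HET 0 passed, with 6 higher and 1 lower by that measure, beside 9.65% and 10.4% of all genes.

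Genes of prostaglandin metabolism and the receptors of sex steroids, glucocorticoids and pituitary hormones held 0 calls in KO against WT (limma). Of 8 prostaglandin genes 2 were higher at an unadjusted p under 0.05, beside 15.2% of all genes (median 0.06), Hpgd, which inactivates prostaglandins (0.43, limma adjusted p = 0.130), and Ptgis, the prostacyclin synthase (0.38, limma adjusted p = 0.130). Of 5 receptor-list genes all had a positive difference (median 0.27), as did 8138 of all 14524 genes. Of the 5, 1 was higher at an unadjusted p under 0.05, beside the same 15.2% of all genes. This was the prolactin receptor gene Prlr (0.58, limma adjusted p = 0.127; 0.0420 with litter as a replicate block), whose other probes differed by 0.26, 0.25 and -0.30. The follicle-stimulating hormone receptor gene Fshr differed by 0.27 at its brightest probe and by 0.57 at its other kept probe (limma adjusted p = 0.207 and 0.11).

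Genes flanking the cluster were read to see how the region as a whole varied. Of the nearest 5 named genes on each side, 9 had a probe and 5 were measured: Net1 on the side of Akr1c14, and Akr1e1, Klf6, Pitrm1 and Pfkp on the side of Akr1c21. None passed the test in KO against WT (0 of 5 by limma). At an unadjusted p under 0.05, 1 was higher and 1 lower, beside 15.2% and 14.4% of all genes. The differences ran from -0.50 for Pfkp, a phosphofructokinase, to 0.45 for Klf6, a zinc finger transcription factor, with a median of -0.14. HET against WT also held 0 calls, with 0 genes at an unadjusted p under 0.05. KO against HET held 0 calls too, with 1 gene higher at that threshold, beside 9.65% of all genes.

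Over these 7 lists, 8 genes were called in KO against WT, where 2.64% of all genes were called higher and 4.98% lower. Cyp17a1, Cyb5a, Hsd3b4, Akr1cl, Akr1b8 and Pgd rose, and Hsd11b1 and Srxn1 fell. The lists held 9, 9, 13, 19, 8, 5 and 5 measured genes in the order given, with Akr1e1 in both the first and the last. With litter as a replicate block the lists held 13 calls, while the calls over all probes went from 1421 to 1912. Leaving out the WT mouse of litter 2 or the KO mouse of litter 1 left 1 of the 8 calls, Hsd3b4. Without the WT mouse of litter 1 Hsd3b4 and Pgd kept theirs, and without the KO mouse of litter 2 Hsd3b4 and Srxn1. Median scaling moved the median KO minus WT difference of all probes from 0.04 to 0.12.

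The genes with the pattern most like that of Akr1c19 were sought over the 6 mice, as the smallest root mean square difference between log2 profiles centred on their own means. Out of 14523 other genes the nearest was LOC229665 (0.110), followed by Snai2, a repressor of epithelial genes (0.132), Cited4, a transcriptional cofactor (0.160), the homeobox gene Hoxa5 (0.161) and Arhgef6 (0.169). Snai2 was at 5.82 and 5.98 for WT, 6.71 and 6.42 for HET and 7.48 and 7.42 for KO. Each of these 5 had both HET mice above both WT mice and both KO mice above the rest, as the measure selects. Hoxa5 was not well above background in WT. Akr1cl ranked at 78 (0.305), and Akr1c12 at 3434 (0.512), so the adjacent family gene was not among the nearest profiles.

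**Figure D4:**
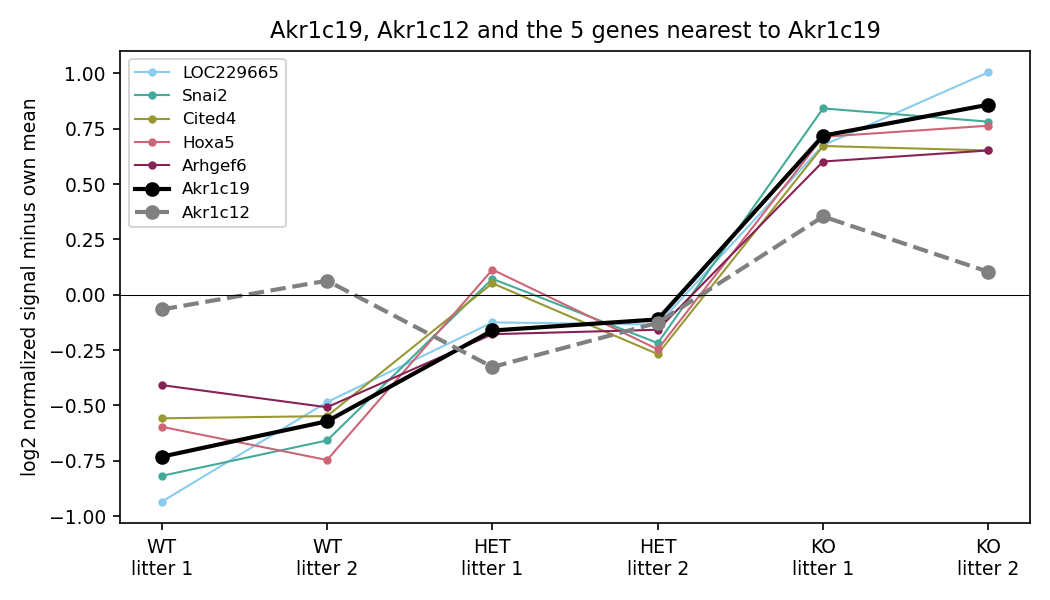
Log2 normalized signal minus each gene's own mean over the 6 mice, for Akr1c19 (black), Akr1c12 (grey, dashed) and the 5 genes with the smallest root mean square difference from Akr1c19. The 5 genes follow Akr1c19 from WT through HET to KO within 0.110 to 0.169, while Akr1c12 is 0.512 away.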

How the data were processed

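Whole testis of 6 mice was read on Illumina bead arrays after biotin labelling of amplified total RNA, per the labels' protocols. Per the file headers, the deposited table pairs the mean bead intensity of every probe (linear scale, not normalized) with a detection p-value, from GenomeStudio per the submitters' processing notes. A second deposited table holds the same intensity values with each array multiplied by 1 factor (0.9595 to 1.099), so that the array means are equal, and with no background subtraction or centring.

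Background was corrected with limma 3.58.1 in R 4.3.3 (neqc with detection p-values, offset 16), followed by quantile normalization and log2. Probes detected at p under 0.05 in both mice of some genotype were kept (20573). Genotype was fitted over all 6 arrays with lmFit and eBayes (two-sided, 3 residual and 6.26 prior degrees of freedom), with Benjamini-Hochberg adjustment over all kept probes and a threshold of 0.05. The fit was tested on simulated data. Alternatives changed the background correction (none, normexp at offset 50), the scaling (median, cyclic loess, the authors' scaled values), the filter, the prior trend, the litter block and the mice included. The labels state that a replicate number marks a shared litter, which pairs the mice. Litter differences correlated between genotypes at 0.091, 0.134 and 0.168.

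Of 31494 deposited symbols 13424 were current in RefSeq (GRCm38.p6), 8145 were updated, 113 matched several genes and 9812 none, and 27 probes with symbols turned into dates were left unnamed. A gene with several kept probes was read at the brightest. Upstream sequences are RefSeq's (GRCm38.p6) and were aligned globally with Biopython 1.88. No build is named in the files. The members and gene lists were chosen with earlier results of these data known. Named genes were all family probes, list members called in any comparison (otherwise the 2 with the smallest p in KO against WT), flanking genes called, and the 5 nearest profiles to Akr1c19. Further genes named among the lists, Hsd17b3, Gsta3, Gstm1, the uncalled aldo-keto reductases and the flanking genes, were chosen after their values were seen.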

Additional observations from a re-analysis of the deposited data

How the results depend on the processing

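The log2 differences of Akr1c19 and Akr1c12 kept their sign in each of the 3 comparisons under all 16 alternatives. One of these, no normalization between arrays, was chosen after seeing the data. Akr1c19 in KO minus WT moved from 1.44 to 1.16 without background correction, 1.26 with normexp at offset 50 and 1.27 with the authors' scaled values, and in KO minus HET from 0.92 to 0.77 without background correction and 1.08 without normalization between arrays. Akr1c12 in KO minus WT moved from 0.23 to 0.40 without normalization between arrays, and in KO minus HET passed with the authors' scaled values (0.37, limma adjusted p = 0.0286; range over alternatives 0.0286 to 0.407). Leaving out single mice gave 0.11 to 0.36 for Akr1c12 in KO minus WT. Akr1c19 in HET minus WT ranged from 0.39 to 0.60. The count of family probes called in KO against HET rose from 0 to 1 without background correction, with normexp at offset 50, median scaling, the stricter detection filter, the intensity trend, litter as a replicate block and no normalization between arrays, and to 2 with the authors' scaled values. Over all probes, the calls in this comparison went from 23 to between 2 and 1685 under the alternatives, so nothing is read from these family counts.

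Over the 7 lists, the 8 genes called in KO against WT became 13 without background correction, 17 with normexp at offset 50, 13 with median scaling, 4 with cyclic loess, 4 without the filter, 16 with the intensity trend, 13 with litter as a replicate block and 28 with the authors' scaled values, and 1 to 8 without single mice. The 1 gene called in KO against HET became 8 without background correction, 11 with normexp at offset 50, 6 with median scaling, 0 without the filter, 8 with the intensity trend, 19 with the authors' scaled values and 11 without normalization between arrays, and 0 to 1 without single mice. Over all probes, the count in KO against WT went from 1421 to between 530 and 4292, and to between 25 and 997 without single mice, in HET against WT from 0 to at most 17, and in KO against HET from 23 to between 2 and 1685 (2 to 10 without single mice). The share of KO against WT calls that were higher was 32.5% with quantile normalization, 58.4% with median scaling, 68.4% with the authors' scaled values, 44.5% without background correction, 43.4% with normexp at offset 50 and 23.2% with cyclic loess. The cause of these changes was not tested. The litter block changed no other call among the family probes. Signal over background limits the 7 undetected family probes, for which a difference was not detectable.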
